A study of Mus musculus with 18 samples.

Results

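The immunoglobulin genes are the segments from which antibodies are assembled, and here they were read in 18 mouse tumors together with 4 partner genes of antibody-making cells. Members were taken from the 41079 genes of the expression table by name, as the constant, variable and diversity genes of the heavy chain, the variable and constant genes of the kappa and lambda light chains, and Jchain, Mzb1, Cd79a and Cd79b. Of 385 genes with such a name, 255 were listed at 0 in every tumor and 91 were above 0 in 1 or 2 tumors, and the remaining 39, above 0 in at least 3 tumors, are the members. They comprised 7 heavy chain constant genes, Igkc, 3 lambda constant genes, 9 heavy, 10 kappa and 3 lambda variable genes, 2 heavy diversity genes and the 4 partner genes.

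The tumors were grown from B16F10, a mouse melanoma cell line, injected under the skin of the right flank in female C57BL/6 mice, whose age is not given in the sources used here. From day 6, every 2 days, each tumor was injected directly, and it was removed 48 h after the last injection for poly(A) RNA sequencing. The 6 groups of 3 tumors received PBS (the buffer control), Free PS473 (a Pistol ribozyme, an RNA enzyme, directed against the mRNA of PD-L1), PS473@CPs (the same ribozyme carried by cationic polymers, CPs), NKMOF-101-[Mn] (the empty manganese metal–organic framework), M5@NKMOF-101-[Mn] (a catalytically inactive ribozyme in the framework) or PS473@NKMOF-101-[Mn] (the active ribozyme in the framework). The last group is named NKMOF-102 in its sample titles and was placed by its treatment text. Nothing in the labels says which tumors shared a cage, day or cell batch, so p-values measure only the spread between these tumors, and each tumor is a mixture of cells in which fewer cells of a type and less RNA per cell cannot be told apart.

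An antibody is built of paired heavy and light chains. In each developing B cell, DNA recombination joins a variable, a joining and, in the heavy chain, a diversity segment, and the joined exon is spliced to a constant gene, so that the progeny of a single B cell transcribe the same variable and joining segments. Ighm encodes the IgM heavy chain, which all B cells make first; Ighd encodes IgD, made by resting B cells; and the Ighg genes and Igha encode the IgG and IgA chains made after class switching. Plasma cells are the antibody-secreting end stage and fill much of their mRNA pool with immunoglobulin transcripts. Jchain links IgM and IgA subunits into polymers, Mzb1 is a chaperone of antibody assembly in the endoplasmic reticulum, and Cd79a and Cd79b carry the signal of the B cell receptor.

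The sequences on which the results turn are 4 variable and 2 joining segments, shown because one pair of variable segments dominated the antibody transcripts of 2 tumors and another was recorded mainly in tumors given the empty framework. They come from GENCODE M21 on GRCm38 and were matched by gene name, since the deposited values were made on GRCm39. Igkv10-96 is shown as its second exon, at chr6:68631963-68632260 on the minus strand, and Igkv6-32 likewise, at chr6:70074024-70074321 on the minus strand. Ighv1-54 at chr12:115193675-115193968 and Ighv1-18 at chr12:114682632-114682925, both on the minus strand, are shown as the 3′ part of the second exon. Igkj1 lies at chr6:70722562-70722599 on the plus strand and Ighj2 at chr12:113429468-113429515 on the minus strand. Capitals mark the bases that differ from the most alike other variable gene of the same chain, aligned without gaps from the 3′ end. The joining segments were not compared and stand in lower case throughout.
Igkv10-96: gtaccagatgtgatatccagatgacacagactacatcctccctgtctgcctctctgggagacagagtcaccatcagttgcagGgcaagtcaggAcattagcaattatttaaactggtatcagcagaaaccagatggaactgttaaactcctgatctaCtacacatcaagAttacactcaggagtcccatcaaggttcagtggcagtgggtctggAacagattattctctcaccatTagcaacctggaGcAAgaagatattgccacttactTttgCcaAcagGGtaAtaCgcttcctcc
Ighv1-54: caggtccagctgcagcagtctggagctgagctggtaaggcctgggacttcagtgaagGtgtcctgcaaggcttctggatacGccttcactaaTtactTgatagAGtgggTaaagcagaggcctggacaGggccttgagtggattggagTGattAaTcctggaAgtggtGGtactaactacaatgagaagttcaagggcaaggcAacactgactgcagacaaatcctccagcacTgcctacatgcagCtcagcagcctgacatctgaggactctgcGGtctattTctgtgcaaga
Igkv6-32: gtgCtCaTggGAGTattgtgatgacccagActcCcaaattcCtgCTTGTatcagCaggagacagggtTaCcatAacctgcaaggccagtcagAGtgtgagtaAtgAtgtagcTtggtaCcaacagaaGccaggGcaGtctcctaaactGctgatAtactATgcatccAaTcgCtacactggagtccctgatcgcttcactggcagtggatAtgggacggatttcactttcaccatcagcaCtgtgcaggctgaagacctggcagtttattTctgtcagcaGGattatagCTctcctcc
Ighv1-18: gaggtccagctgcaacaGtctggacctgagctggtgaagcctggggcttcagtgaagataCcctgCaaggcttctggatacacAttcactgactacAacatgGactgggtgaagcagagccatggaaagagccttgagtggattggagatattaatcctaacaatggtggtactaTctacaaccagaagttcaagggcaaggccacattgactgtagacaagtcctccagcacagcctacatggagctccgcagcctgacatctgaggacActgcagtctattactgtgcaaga
Igkj1: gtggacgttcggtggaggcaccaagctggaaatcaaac
Ighj2: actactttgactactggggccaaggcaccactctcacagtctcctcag

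Igkv10-96 differed from Igkv10-94 at 16 bases of the stretch shown and was 94.6% identical to it. Ighv1-54 differed from Ighv1-63 at 21 bases (92.9% identity), and Igkv6-32 from Igkv6-17 at 42 bases (85.9% identity). Ighv1-18 was the least distinct, with 8 bases different from Ighv1-26 (97.3% identity), which is also a member. A fragment that lies between the differing bases cannot be assigned to one gene of such a pair by sequence, so single variable gene values, and those of Ighv1-18 most of all, are uncertain in that respect. Members on chromosome 18 were left out of the promoter search. Among the members elsewhere, Jchain and Cd79a had a promoter in the RefSeq set (GRCm38.p6) used here. Neither window, of 250 bases before to 50 after the start, held the octamer ATGCAAAT or the TATA box TATAAA on either strand. Over all 32851 promoters the octamer occurred in 1.74% and the TATA box in 13.6%.

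Immunoglobulin transcripts were scarce in these melanomas. Levels are given in FPKM, fragments per kilobase of transcript scaled to the depth of each tumor, and the fragments behind a value were recovered from the spacing of low values in each tumor, with 17212000 to 28401000 fragments per tumor. All constant and variable genes together had 54 to 955 fragments per tumor (median 145). Between 13 and 28 members were above 0 in a tumor, with a median of 18, and 6 members were above 0 in all 18. Only 7 members averaged at least 1 FPKM, namely Igkc, Ighm, Igkv10-96, Ighg2b, Ighv1-54, Ighd3-1 and Ighd3-2, and 23 members stayed under 1 FPKM in every tumor. The rule admits genes resting on very few fragments. Just inside it stood 9 members above 0 in exactly 3 tumors, among them Ighg1 with a highest value of 0.0392 FPKM. Just outside it stood Ighv1-31, at 0.832 FPKM (5 fragments) in PS473@NKMOF-101-[Mn] 3 and 0 elsewhere, and Igkv17-121, at 0.726 FPKM in PBS 2 and 0.0823 in M5@NKMOF-101-[Mn] 1. The short diversity genes Ighd5-6, Ighd4-1 and Ighd1-1 also fell outside, at 4.97, 2.32 and 1.22 FPKM in 1 tumor each, on 1, 0.5 and 0.5 fragments.

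Several defining markers of B and plasma cells were at or near 0. Ms4a1 (CD20) reached at most 0.127 FPKM and Pax5, the B lineage transcription factor, at most 0.124. Tnfrsf17, the plasma cell survival receptor BCMA, was listed at 0 in 16 of 18 tumors and reached 0.0384 FPKM in Free PS473 3. Of the 15 plasma cell markers, 5 averaged at least 1 FPKM: Sdc1 (syndecan-1, 12.2 to 64.7 FPKM), Xbp1 (a secretory cell transcription factor, 25.0 to 36.1 FPKM), Txndc5 (a protein-folding enzyme of the endoplasmic reticulum, 59.7 to 80.8 FPKM), Ell2 and Cd38. These genes are also made by other cells, and Sdc1 was highest in PS473@CPs 2, the tumor in which the 13 skin epithelium markers found in the table summed highest, to 5031 FPKM. The summed level of the 13 B cell markers ranged from 1.68 to 4.22 FPKM, Cd79a and Cd79b included, with 0 of the 13 averaging 1 FPKM, and that of the 15 plasma cell markers from 103 to 186 FPKM.

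The constant genes set the overall level, and the tumors given the empty framework stood above most others. Their summed constant FPKM averaged 35.0 ± 32.2 (SD, n = 3), with tumors at 13.5, 19.4 and 72.0. PS473@CPs averaged 16.6 ± 16.0, with 34.9, 5.49 and 9.38 in its 3 tumors. PBS averaged 7.62 ± 3.06, with 11.1, 6.46 and 5.31. Lower still were M5@NKMOF-101-[Mn] at 6.73 ± 0.957, then PS473@NKMOF-101-[Mn] at 4.42 ± 2.67, and Free PS473 at 2.95 ± 1.07. Every NKMOF-101-[Mn] tumor was therefore above every tumor of the PBS, PS473@NKMOF-101-[Mn], Free PS473 and M5@NKMOF-101-[Mn] groups, while PS473@CPs 1 was above 2 of the 3 NKMOF-101-[Mn] tumors. The spread within the 2 high groups was nearly as large as their means.

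**Figure D1:**
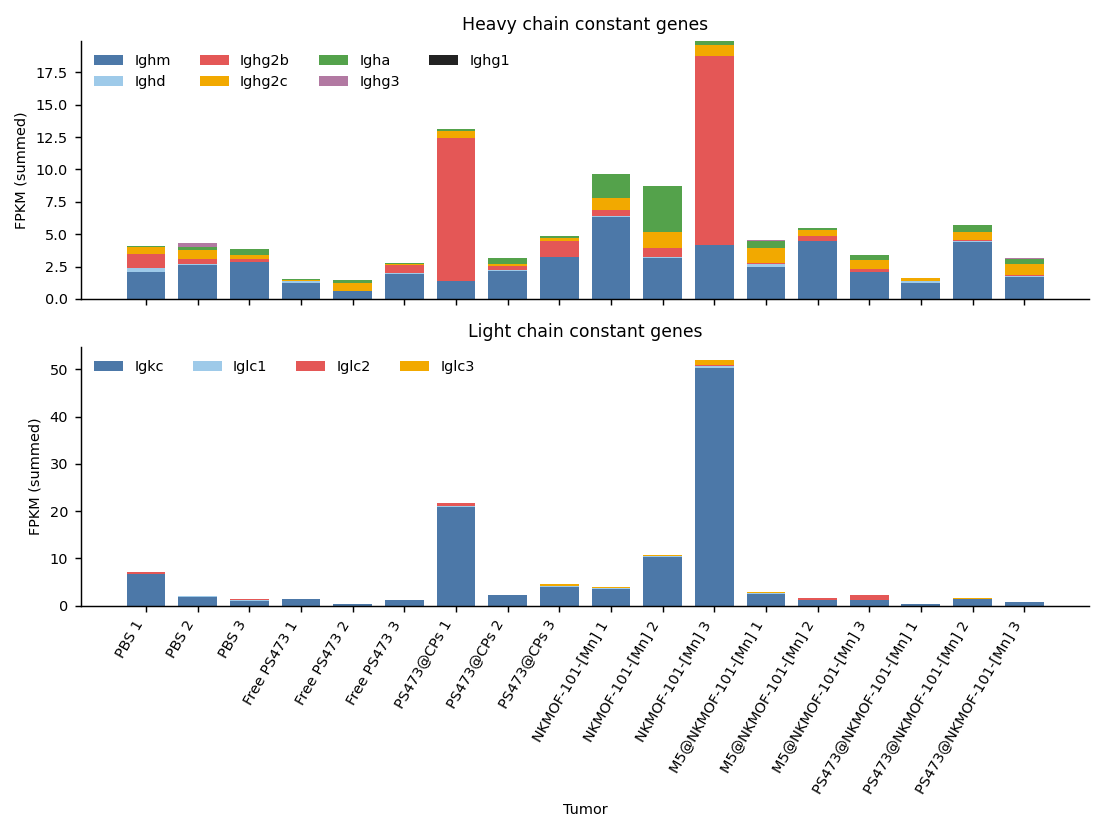
Summed FPKM of the heavy chain constant genes (upper bars) and light chain constant genes (lower bars) in each of the 18 tumors, coloured by gene. PS473@CPs 1 and NKMOF-101-[Mn] 3 stand out through Ighg2b and Igkc, and Igha is visible in NKMOF-101-[Mn] 1 and 2.

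Igkc, the kappa light chain constant gene, had the widest range in FPKM of the members. Its levels were 6.79, 1.80 and 0.995 FPKM in the PBS tumors, 1.36, 0.426 and 1.22 in Free PS473, 21.0, 2.17 and 4.04 in PS473@CPs, 3.56, 10.3 and 50.3 in NKMOF-101-[Mn], 2.50, 1.28 and 1.14 in M5@NKMOF-101-[Mn], and 0.330, 1.30 and 0.752 in PS473@NKMOF-101-[Mn]. These values rest on 2.5 fragments in PS473@NKMOF-101-[Mn] 1 up to 286 in NKMOF-101-[Mn] 3. The NKMOF-101-[Mn] tumors and the PS473@CPs tumors were all above all 3 PS473@NKMOF-101-[Mn] tumors, whereas the NKMOF-101-[Mn] and PBS tumors overlapped, since PBS 1 was above NKMOF-101-[Mn] 1. Kappa made up 50.1% to 100% of the light chain constant FPKM, with a median of 93.2%. The lambda constant genes Iglc1, Iglc2 and Iglc3 had at most 10 fragments together in a tumor, and the lowest kappa share, in M5@NKMOF-101-[Mn] 3, came with Iglc2 at 1.14 FPKM on 7.17 fragments.

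Ighm, the IgM heavy chain, was recorded in every tumor and varied much less than Igkc. It was at 2.07, 2.63 and 2.87 FPKM in the PBS tumors, 1.23, 0.588 and 1.90 in Free PS473, 1.39, 2.17 and 3.24 in PS473@CPs, 6.33, 3.12 and 4.20 in NKMOF-101-[Mn], 2.47, 4.46 and 2.05 in M5@NKMOF-101-[Mn] and 1.21, 4.42 and 1.72 in PS473@NKMOF-101-[Mn]. The 3 NKMOF-101-[Mn] tumors were above all PBS and Free PS473 tumors and overlapped the tumors of the other 3 groups. Ighm supplied a median of 63.1% of the heavy chain constant FPKM of a tumor, with 10.6% in PS473@CPs 1 and 21.1% in NKMOF-101-[Mn] 3 as the lowest values and 81.5% in M5@NKMOF-101-[Mn] 2 as the highest. Ighd, the IgD chain, reached at most 0.322 FPKM, in PBS 1.

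The switched isotypes separated single tumors. Ighg2b was at 11.0 FPKM in PS473@CPs 1 and 14.6 in NKMOF-101-[Mn] 3 (272 and 316 fragments), against at most 1.27 in the other 16 tumors and a median there of 0.253. It made up 83.8% and 73.0% of the heavy chain constant FPKM of those 2 tumors. Ighg2c, the IgG2c chain of the C57BL/6 strain, was above 0 in all 18 tumors, at 0.117 to 1.25 FPKM, and was at 0.901, 1.25 and 0.838 in the NKMOF-101-[Mn] tumors against 0.570, 0.713 and 0.266 in PBS. Igha was at 1.90 and 3.58 FPKM in NKMOF-101-[Mn] 1 and 2, where it supplied 19.7% and 41.0% of the heavy chain constant FPKM, and at most 0.557 in the other 16 tumors. Ighg3 exceeded 2 fragments only in PBS 2, with 0.277 FPKM on 6.5 fragments, and Ighg1 had at most 1 fragment in a tumor.

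The same variable, joining and constant segments were high in PS473@CPs 1 and NKMOF-101-[Mn] 3, which belong to different groups. The values are per segment, and which segments were joined in 1 transcript was not tested. Igkv10-96 was at 12.4 FPKM in PS473@CPs 1 and 22.1 in NKMOF-101-[Mn] 3, and at most 1.43 in the other 16 tumors, 7 of which were listed at 0. Its fragments made up 97.2% (exact Clopper-Pearson 95% interval 92.1% to 99.7%) and 97.1% (92.8% to 99.2%) of all kappa variable fragments in those tumors, after rounding to whole fragments. Ighv1-54 was at 7.51 and 11.5 FPKM, and at most 1.02 in the other 16 tumors. It made up 98.9% (92.1% to 100%) and 87.0% (76.7% to 93.9%) of the heavy variable fragments, intervals that cover counting error only.

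The joining segments, which the rule leaves out, followed. Igkj1 was at 12.7 FPKM in PS473@CPs 1 and 30.4 in NKMOF-101-[Mn] 3, with PBS 1 at 7.23 as the highest of the rest. Ighj2 was at 14.2 and 9.97 FPKM, against at most 2.11, in NKMOF-101-[Mn] 2. These are short segments, and the Ighj2 values rest on 13.8 and 8.5 fragments. PS473@CPs 1 and NKMOF-101-[Mn] 3 were picked because these segments were high in them. No other pair of tumors was screened as follows, so the outcome is a description. Of 41079 genes, 5 had at least 1 FPKM in both tumors and more than 3 times the highest value of the other 16 tumors. All 5 were immunoglobulin genes, namely Ighg2b, Ighj2, Ighv1-54, Igkv10-96 and Igkj4, the last on 1.5 and 1 fragments. These 2 tumors held 87.2% of the Igkv10-96 fragments of all 18 tumors, 86.0% of the Ighv1-54, 79.0% of the Ighg2b and 60.3% of the Igkc fragments, but 10.2% of the Ighm, 12.0% of the Ighg2c and 5.06% of the Igha fragments.

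**Figure D2:**
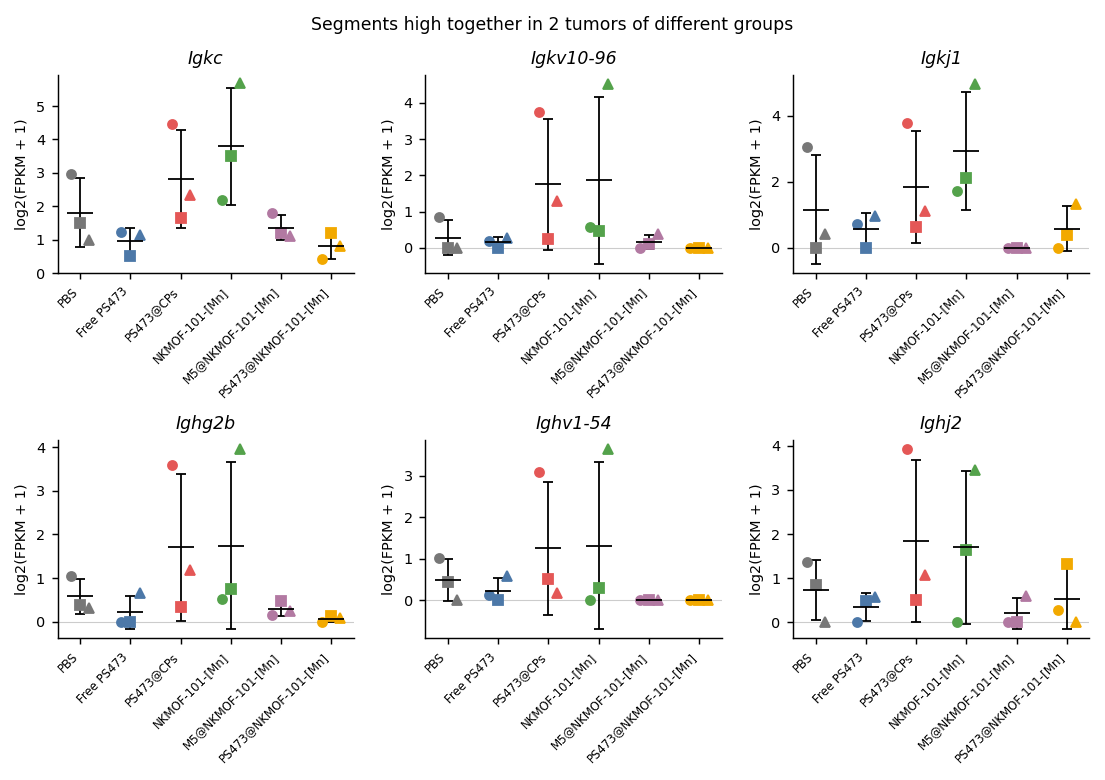
log2(FPKM + 1) of 6 segments in the 6 groups, where circles, squares and triangles are tumors 1, 2 and 3 of a group and black bars are means ± SD (n = 3). The circle of PS473@CPs and the triangle of NKMOF-101-[Mn] are the highest points of Igkc, Igkv10-96, Igkj1, Ighg2b, Ighv1-54 and Ighj2.

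Segment levels in those tumors were also compared as ratios. The Igkv10-96 level was 0.593 times that of Igkc in PS473@CPs 1 and 0.440 times in NKMOF-101-[Mn] 3, against a median ratio of 0.0690 over the 18 tumors. The Ighv1-54 level was 0.681 and 0.789 times that of Ighg2b, against a median of 0.0945 over the 15 tumors with Ighg2b above 0. This ratio was higher in PBS 1 (0.959), PBS 2 (1.11), Free PS473 3 (0.831) and PS473@CPs 2 (1.56), each on 6 or fewer Ighv1-54 fragments. Light chain constant FPKM was 1.66 and 2.61 times heavy chain constant FPKM, against a median of 0.569, with PBS 1 at 1.73. The same segments were seen at lower levels elsewhere. In PBS 1, Ighv1-54 was the only heavy variable gene recorded, on 6 fragments, and Igkv10-96 had 5.5 of 8.5 kappa variable fragments beside Igkc at 6.79 FPKM. In PS473@CPs 3, Igkv10-96 had 14 of 27.5 kappa variable fragments (50.9%, 31.9% to 71.3%) beside Ighg2b at 1.27 FPKM.

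Across all expressed genes the 2 tumors were not unusually alike. Their log2(FPKM + 1) values had a Pearson correlation of 0.975 over 12357 genes, given as a description, and 41 of the 135 pairs of tumors from different groups were more alike. The summed level of the 13 skin epithelium markers was 3.10 FPKM in PS473@CPs 1 and 111 in NKMOF-101-[Mn] 3, against 2.29 to 5031 over all tumors. Lymph node stroma markers summed to 1.73 and 0.883 FPKM there, against 0.581 to 15.8 overall. Pou2af1, a co-activator of immunoglobulin transcription, was at 0.222 and 0.373 FPKM in the 2 tumors, its highest values, with Tnfrsf17 at 0 in both.

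A second set of segments, picked because of its values there, was recorded mainly in tumors given the empty framework. Igkv6-32 was at 0.636, 1.04 and 0.162 FPKM in the 3 NKMOF-101-[Mn] tumors, on 4.5, 8 and 1 fragments, and is a member through these tumors alone. It was listed at 0 in the other 15 tumors, where 3 fragments would have given 0.304 to 0.502 FPKM. Ighv1-18 was at 0.751, 1.91 and 0.574 FPKM in those tumors, at 0.436 in PBS 2 and 0.277 in PS473@CPs 2, and at 0 in the other 13. Of its 24.5 fragments, 81.6% fell in the NKMOF-101-[Mn] tumors. Of the Igha fragments 59.4% fell there, beside 54.8% of the Igkc and 27.2% of the Ighm fragments. NKMOF-101-[Mn] 2 held 97.5 of the 152.5 Igha fragments of its group, and NKMOF-101-[Mn] 3, at 0.345 FPKM, was below PBS 3, at 0.499. Jchain was at 0.170, 0.379 and 0.530 FPKM in NKMOF-101-[Mn], and 2 of these 3 tumors were above all others, of which PS473@CPs 1 was the highest at 0.209. Iglc3, a lambda constant gene, was at 0.155, 0.284 and 1.07 FPKM in NKMOF-101-[Mn], on 1, 2 and 6 fragments. It was at most 0.300 in the other 15 tumors, so that only NKMOF-101-[Mn] 3 stood clear of them.

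**Figure D3:**
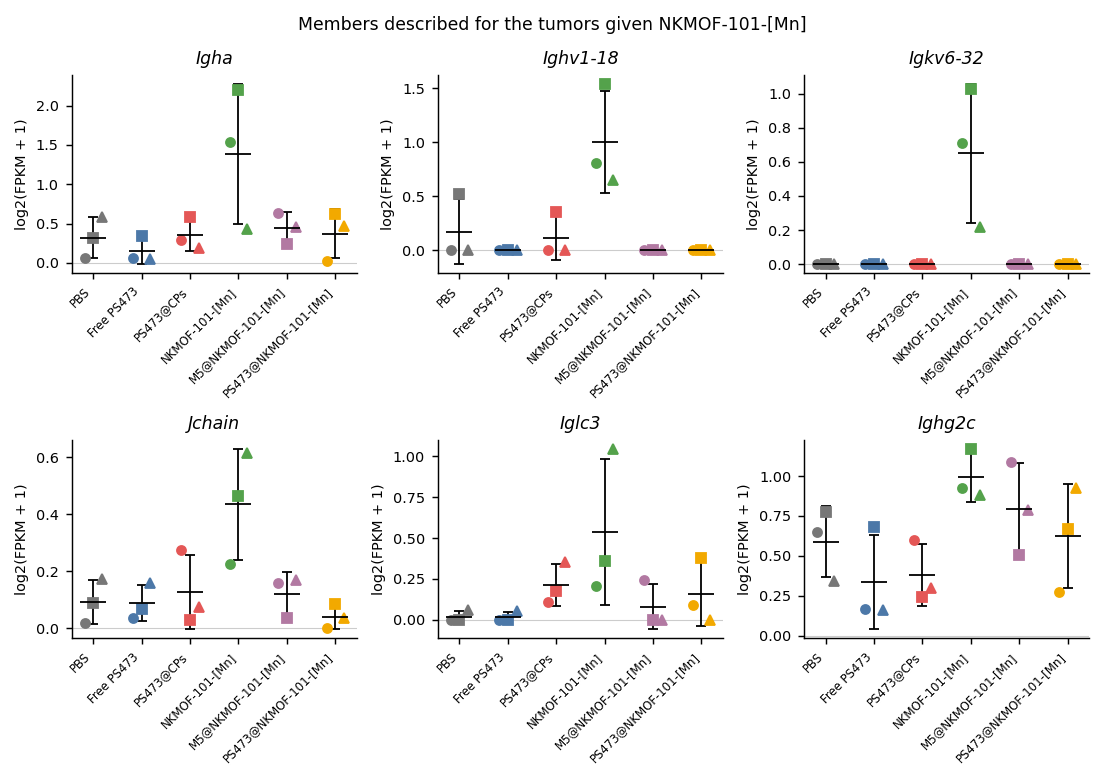
log2(FPKM + 1) of Igha, Ighv1-18, Igkv6-32, Jchain, Iglc3 and Ighg2c in the 6 groups, where circles, squares and triangles are tumors 1, 2 and 3 and black bars are means ± SD (n = 3). Igkv6-32 is above 0 in the 3 NKMOF-101-[Mn] tumors and in no other tumor.

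The number of different heavy variable genes was also highest in these tumors. Heavy variable genes above 0 numbered 11, 16 and 7 in NKMOF-101-[Mn] 1 to 3, counted over all named genes and not over members alone, and 1 to 6 in every other tumor. Kappa variable genes numbered 8, 11 and 6, within the range of 1 to 10 of the other 15 tumors for 2 of the 3. The leading heavy variable gene was Ighv1-18 in NKMOF-101-[Mn] 1 and 2, with 33.3% (8.39% to 58.1%) and 35.7% (21.5% to 55.1%) of the heavy variable fragments. The shares use fragments as recovered, whereas the intervals use fragments rounded to whole numbers. The leading kappa gene was Igkv6-32 in both tumors, with 29.5% and 28.1%. NKMOF-101-[Mn] 2 thus carried 35 heavy variable fragments over 16 genes, while PS473@CPs 1 carried 45 over 2. Counts of genes move with the number of fragments, and the other 12 tumors outside NKMOF-101-[Mn] and PS473@CPs had 2 to 9.5 heavy variable fragments.

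In the 14 tumors other than PS473@CPs 1 and those of NKMOF-101-[Mn], most variable genes rested on very few fragments. The leading heavy gene had 1 to 6 fragments there. It was Ighv1-54 in PBS 1, Free PS473 3 and PS473@CPs 2, with 6, 3 and 3 fragments, and a different gene in each of the other 11, among them Ighv2-3 in PBS 2, Ighv1-82 in PBS 3, Ighv10-2 in Free PS473 1, Ighv14-4 in PS473@CPs 3, Ighv1-80 in M5@NKMOF-101-[Mn] 2 and Ighv1-31 in PS473@NKMOF-101-[Mn] 3. The best supported kappa gene of these tumors was Igkv10-96 in PS473@CPs 3, described above with its 14 fragments. Igkv2-95-2 led in M5@NKMOF-101-[Mn] 3 at 0.734 FPKM and in PS473@NKMOF-101-[Mn] 2 at 0.553, and was highest in PS473@CPs 3, at 1.13 FPKM on 5.5 fragments. Igkv3-4 reached 0.426 FPKM in PBS 3. The lambda variable genes Iglv1, Iglv2 and Iglv3 had at most 5 fragments in a tumor, with Iglv1 highest in PBS 3 at 0.726 FPKM.

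The receptor partners Cd79a and Cd79b were present in every tumor. Cd79a was at 0.294 to 1.46 FPKM, with group means of 0.908 ± 0.293 in PBS, 0.984 ± 0.448 in Free PS473, 0.523 ± 0.171 in PS473@CPs, 0.760 ± 0.502 in NKMOF-101-[Mn], 1.13 ± 0.284 in M5@NKMOF-101-[Mn] and 0.982 ± 0.132 in PS473@NKMOF-101-[Mn] (SD, n = 3). All groups overlapped at least one other, but the PS473@CPs tumors (0.421 to 0.720 FPKM) were below all M5@NKMOF-101-[Mn] (0.968 to 1.46) and PS473@NKMOF-101-[Mn] tumors (0.855 to 1.12). The tumors with the highest and second-highest Igkc, NKMOF-101-[Mn] 3 and PS473@CPs 1, had Cd79a at 1.29 and 0.421 FPKM. Cd79b was at 0.0950 FPKM in Free PS473 2 up to 2.18 in M5@NKMOF-101-[Mn] 2, with 1.51 and 0.947 in NKMOF-101-[Mn] 3 and PS473@CPs 1. Mzb1 was at 0 in PS473@NKMOF-101-[Mn] 3 and highest in Free PS473 2, at 0.839 FPKM, which was the tumor with the fewest antibody fragments. The 2 tumors high in Igkv10-96 had Mzb1 at 0.356 and 0.217 FPKM.

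**Figure D4:**
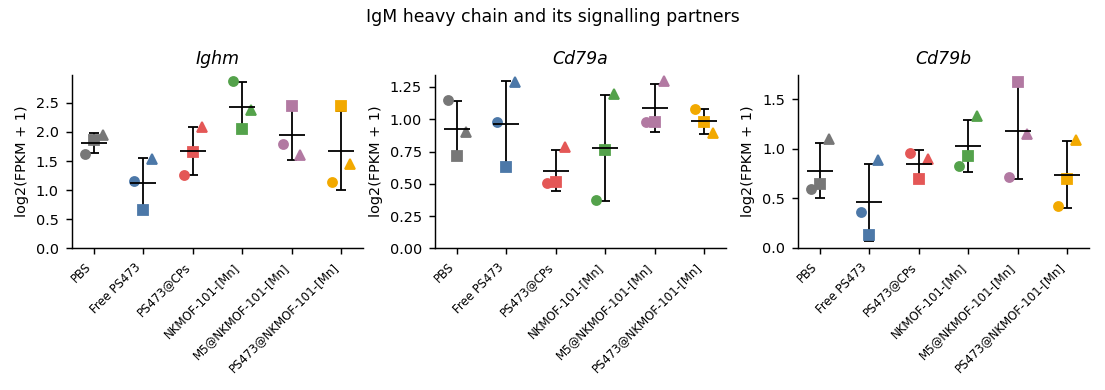
log2(FPKM + 1) of Ighm, Cd79a and Cd79b in the 6 groups, where circles, squares and triangles are tumors 1, 2 and 3 and black bars are means ± SD (n = 3). Cd79a and Cd79b overlap between groups, and the 3 NKMOF-101-[Mn] tumors lie above the PBS and Free PS473 tumors for Ighm.

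Group differences were tested with limma on log2(FPKM + 1) over the 12357 genes averaging at least 1 FPKM, 7 of them members, with Benjamini-Hochberg adjustment and a call at an adjusted p under 0.05 with a change of more than 1 on the log2 scale. In the 9 comparisons and the test over all 6 groups, 0 of the 7 members were called, and 0 of the 12357 genes were (0%). At an unadjusted p under 0.05, PS473@NKMOF-101-[Mn] against NKMOF-101-[Mn] held 2 of 7 members, both lower (2.30% of all genes). NKMOF-101-[Mn] against PBS held 1, which was higher (1.46% of all genes). PS473@NKMOF-101-[Mn] held 1 against PS473@CPs (2.29% of all genes), 2 against Free PS473 (4.98%), 0 against PBS (2.10%) and 1 against M5@NKMOF-101-[Mn] (0.591%), all lower. The member against PS473@CPs was Igkc. Those against Free PS473 were Ighd3-1 and Ighd3-2, and that against M5@NKMOF-101-[Mn] was Ighd3-1. Both are diversity segments of 17 and 16 bases with at most 2.5 fragments in a tumor. Against PBS, Free PS473 (1.81% of all genes), PS473@CPs (2.09%) and M5@NKMOF-101-[Mn] (1.51%) held 0. The test over 6 groups held 3, namely Ighd3-2, Ighm and Igkc (1.99% of all genes). The filter on the mean admits a member through the tumors where it is high, so these counts are descriptions.

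Igkc had the largest difference among the 7 members in the 9 comparisons. Its log2 fold change was -2.98 (SE 0.79) in PS473@NKMOF-101-[Mn] against NKMOF-101-[Mn], with an adjusted limma p of 0.999 (0.0019 before adjustment). Without NKMOF-101-[Mn] 3 the value was -2.04, with an unadjusted limma p of 0.013. In NKMOF-101-[Mn] against PBS the log2 fold change was 1.98 (SE 0.79), with an adjusted limma p of 1.00 (0.025 before adjustment). Without NKMOF-101-[Mn] 3 it was 1.03, with an unadjusted limma p of 0.17. In PS473@NKMOF-101-[Mn] against PS473@CPs it was -2.01 (SE 0.79), with an adjusted limma p of 0.996 (0.023 before adjustment). Without PS473@CPs 1 it was -1.19, with an unadjusted limma p of 0.14. A value of -0.56 (SE 0.79) separated the active from the inactive ribozyme in the same framework, which did not exceed its error. PS473@CPs against PBS gave 1.00 (SE 0.79), and 0.18 without PS473@CPs 1.

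Ighm had a log2 fold change of -0.76 (SE 0.34) in PS473@NKMOF-101-[Mn] against NKMOF-101-[Mn], with an adjusted limma p of 0.999 (0.043 before adjustment). In NKMOF-101-[Mn] against PBS it had 0.62 (SE 0.34), with an unadjusted limma p of 0.088. Its other 7 differences lay between -0.69 in Free PS473 against PBS and 0.56 in PS473@NKMOF-101-[Mn] against Free PS473. Ighg2b, Igkv10-96 and Ighv1-54, each high in 1 tumor of 2 groups, had SEs of 0.80, 0.91 and 0.81 and an unadjusted p above 0.05 in all 9 comparisons. The 2 comparisons of NKMOF-101-[Mn], with PBS and with PS473@NKMOF-101-[Mn], share the same 3 tumors. The 7 macrophage markers summed to 206 to 366 FPKM in these tumors, against 109 to 180 in PBS, 103 to 212 in PS473@NKMOF-101-[Mn] and up to 310 in M5@NKMOF-101-[Mn], and their part in these differences was not tested.

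**Figure D5:**
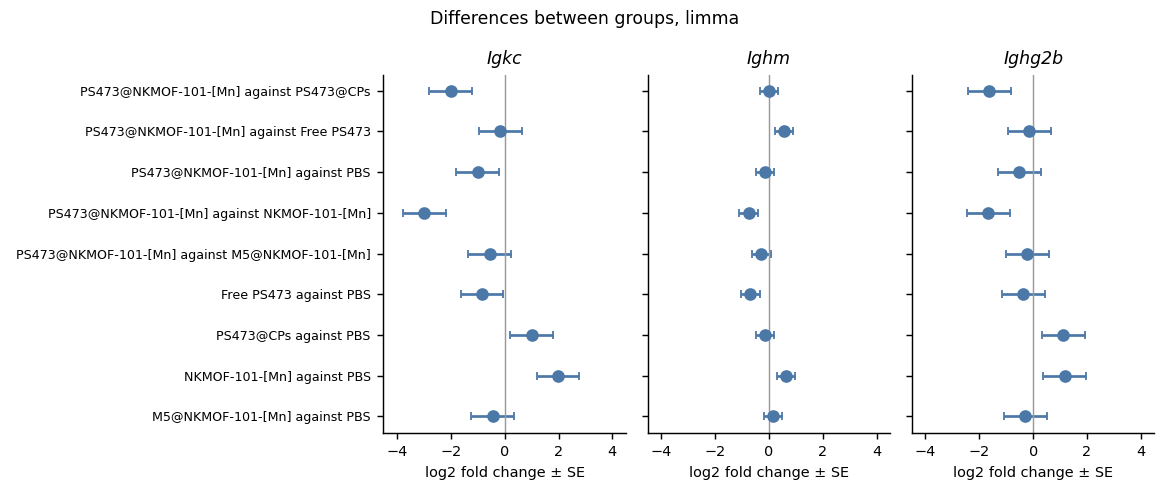
log2 fold changes (points) with limma standard errors (bars) of Igkc, Ighm and Ighg2b on log2(FPKM + 1) in the 9 comparisons. Igkc is farthest from 0 in PS473@NKMOF-101-[Mn] against NKMOF-101-[Mn], at -2.98, and Ighm stays within 0.76 of 0.

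With no filter on expression all 39 members entered the fit with 27373 genes. Again 0 members were called after adjustment, beside 0 of all genes in each of the 9 comparisons and 2 in the test over 6 groups. At an unadjusted p under 0.05, PS473@NKMOF-101-[Mn] against NKMOF-101-[Mn] held 11 of 39 members, 10 of them lower (3.28% of all genes), and NKMOF-101-[Mn] against PBS held 10, of them 9 higher (2.84% of all genes). PS473@NKMOF-101-[Mn] held 4 members against PS473@CPs (2.89% of all genes), 4 against Free PS473 (5.26%), 3 against PBS (3.09%) and 2 against M5@NKMOF-101-[Mn] (2.43%). Against PBS, Free PS473 held 2 (3.45%), PS473@CPs 3 (3.02%) and M5@NKMOF-101-[Mn] 3 (3.57%), and the test over 6 groups held 8 (3.24%). Because a member need be above 0 in only 3 tumors, a gene recorded in a single group is admitted through that group, and members can be parts of 1 transcript, so these counts are no measure of how many independent changes there were. Jchain had a log2 fold change of 0.34 (SE 0.08) in NKMOF-101-[Mn] against PBS and of -0.40 (SE 0.08) in PS473@NKMOF-101-[Mn] against NKMOF-101-[Mn], and Igha had 1.06 (SE 0.33) and -1.01 (SE 0.33), with adjusted limma p-values of 1.00. Folds of such low genes are understated by the pseudocount of 1.

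The wider antibody pathway, described by lists drawn up for this tissue, contributed 0 calls in every comparison. In PS473@NKMOF-101-[Mn] against NKMOF-101-[Mn], 6 of 22 tested genes of antibody assembly and secretion in the endoplasmic reticulum had an unadjusted p under 0.05, all lower, beside 2.30% of all genes in either direction. Of the 22, 1 had a positive value, beside 38.3% of all genes. The list's median log2 fold change was -0.18, against -0.04 over all genes. Creld2, an endoplasmic reticulum chaperone, averaged 36.9 FPKM against 54.4 (log2 fold change -0.54, SE 0.17), and Hspa5, the chaperone BiP that holds free heavy chains, 212 against 271 (-0.35, SE 0.14). Hsp90b1, Manf, Fkbp2 and Txndc5 had log2 fold changes of -0.21 to -0.34. These genes serve secretion in many cells. Among the 4 tested plasma cell transcription factors, Xbp1 was at 26.5 against 32.8 FPKM (-0.30, SE 0.13). In NKMOF-101-[Mn] against PBS, 21 of the 22 endoplasmic reticulum genes had positive values, beside 58.8% of all genes. Free PS473, the group lowest in summed constant FPKM, had 20 of 22 positive against PBS, beside 59.5% of all genes. In PS473@NKMOF-101-[Mn] against Free PS473, 3 of 22 were positive, beside 38.5%.

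In NKMOF-101-[Mn] against PBS, all 10 tested receptors and carriers that bind antibody had positive values, beside 58.8% of all genes, and 0 had an unadjusted p under 0.05, with a median log2 fold change of 0.60 against 0.03 over all genes. The list includes Fc receptors and C1q, which macrophages also make. Of 13 tested genes of B cell receptor signalling, 12 had positive values, with a median of 0.35, and Pik3cd, a lipid kinase of lymphocytes, had an unadjusted p under 0.05 (3.78 against 2.99 FPKM, log2 fold change 0.26, SE 0.11). The 9 tested genes of class switching and hypermutation had a median of 0.12, and the 3 tested of plasma cell survival and B cell attraction a median of -0.09. The positive values were not particular to the empty framework. In M5@NKMOF-101-[Mn] against PBS, 12 of 13 signalling genes and 9 of 10 antibody receptors and carriers were positive, beside 47.7% of all genes. PS473@CPs against PBS had 11 and 7, PS473@NKMOF-101-[Mn] 7 and 5, and Free PS473 5 and 1. None of the genes of recombination and the surrogate light chain, which mark precursor B cells, averaged 1 FPKM.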

How the data were processed

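RNA from 18 B16F10 tumors, 3 in each of 6 groups, was sequenced from poly(A) libraries. The authors deposited FPKM values per gene with gene lengths, aligned to GRCm39 per the labels; the aligner, the counting tool and the annotation are not given in the sources used here. FPKM times length summed to the same total in each tumor, and low values stepped in units of a recovered fragment: 47.3% to 51.4% of values below 20 fragments were whole within 0.01, and 98.2% to 99.0% were multiples of 0.25. Depth was therefore 17212000 to 28401000 fragments per tumor. The 12357 genes averaging 1 FPKM or more entered a limma 3.58.1 fit (R 4.3.3) of log2(FPKM + 1) with 6 group means, an intensity trend and Benjamini-Hochberg adjustment; the script was tested on simulated data. FPKM is not a count, so no count model was used. Members and gene lists were chosen with earlier results of these data known. The rule named all constant and partner genes, the 10 variable genes of highest mean and any member called; other genes were named after their values were seen. Alternatives changed the pseudocount, filter, scaling, trend, samples and block. Reference sequences came from GENCODE M21 and RefSeq and were matched by gene name. Groups other than these 6 were not analysed here. Intervals were computed on fragments rounded to whole numbers and cover counting error only. Python 3.11.15 with pandas 2.3.3 was used for all else.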

Additional observations from a re-analysis of the deposited data

How the results depend on the processing

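The count of members called stayed at 0 in all 9 comparisons and in the test over 6 groups under a pseudocount of 0.1, both filters, quantile normalization, upper-quartile scaling and no trend. It stayed at 0 in the 9 comparisons fitted on the compared groups alone, and, with each tumor left out in turn, in that tumor's comparisons and the test over 6 groups (0 to 0). The replicate block also gave 0 in each, and the numbers do not pair the tumors: same-numbered tumors had a median correlation of deviations of -0.019 (-0.73 to 0.72 over 45 pairs) against -0.0054 for others. With the block, Igkc in PS473@NKMOF-101-[Mn] against NKMOF-101-[Mn] had a log2 fold change of -2.98 and an unadjusted limma p of 0.0030. With no filter and a pseudocount of 0.1 together, chosen after seeing the data, Igkv6-32 was the only member called. It was called in PS473@NKMOF-101-[Mn] against NKMOF-101-[Mn], in NKMOF-101-[Mn] against PBS and in the test over 6 groups. Igkv6-32 is listed at 0 in 15 tumors and is a member through the NKMOF-101-[Mn] tumors alone. These calls are therefore a description, and the share of all genes called under this setting is not given here. Without PS473@CPs 1 and NKMOF-101-[Mn] 3 together, also chosen after seeing the data, 0 were called. Of 144 alternative values each, 2 of Igkc and 9 of Ighm changed sign, all for differences smaller than their SE. Igkc in PS473@NKMOF-101-[Mn] against Free PS473 ranged from -0.39 to 0.038 with 1 tumor left out, the last of these for PS473@NKMOF-101-[Mn] 1, and in M5@NKMOF-101-[Mn] against PBS from -0.86 to 0.12, the last for PBS 1. Ighm in PS473@NKMOF-101-[Mn] against PS473@CPs became -0.022 with the pseudocount of 0.1, with or without the filter, and ranged from -0.37 to 0.27 with 1 tumor left out, with -0.37 for PS473@NKMOF-101-[Mn] 2 and -0.20 for PS473@CPs 1, alone or with NKMOF-101-[Mn] 3. With 1 tumor left out it ranged from -0.52 to 0.13 in PS473@NKMOF-101-[Mn] against PBS (positive for PS473@NKMOF-101-[Mn] 1), from -0.35 to 0.062 in PS473@CPs against PBS (positive for PS473@CPs 1, and 0.062 also without both tumors) and from -0.11 to 0.31 in M5@NKMOF-101-[Mn] against PBS (negative for M5@NKMOF-101-[Mn] 2). The mean summed constant FPKM was 16.5 to 45.7 in NKMOF-101-[Mn] and 7.43 to 22.2 in PS473@CPs with 1 tumor left out. Values of 3 fragments or fewer limit every variable gene outside the leading ones.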

Other observations

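The 2 diversity genes among the members, Ighd3-1 and Ighd3-2, are 17 and 16 bases long, so that 1 fragment gave several FPKM. Ighd3-2 was above 0 in all 3 Free PS473 tumors, at 3.11, 2.44 and 7.39 FPKM on 1, 1 and 2.5 fragments, and at 0 in all PS473@CPs and NKMOF-101-[Mn] tumors, including the 2 tumors richest in antibody fragments. Ighd3-1 was highest in M5@NKMOF-101-[Mn] 1, at 5.13 FPKM on 1.5 fragments.

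The genes outside the members whose log2(FPKM + 1) was most like that of Igkc over the 18 tumors, among genes averaging at least 1 FPKM, were Igkj1 (Pearson r 0.92, Spearman rho 0.69) and Ighj2 (0.86 and 0.60). The next 8, with r from 0.73 to 0.63, were Zcchc10, Uchl5, Ddx31, Nop58, Dnajc2, Dhrs13os, Usp1 and Pcgf6, each within a narrow range of levels, such as 8.20 to 13.0 FPKM for Zcchc10. Without PS473@CPs 1 and NKMOF-101-[Mn] 3, r over 16 tumors was 0.76 for Igkj1, 0.74 for Zcchc10 and 0.37 for Nop58. The tumors share libraries and depth between genes, and the values are descriptions of the ranking over 12357 genes.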
